A study of Homo sapiens with 6 samples.

Results

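The 3 human TET dioxygenase genes and the 5 plasmid sequences of the same table were followed in HEK293T cells that carried a light-activatable human TET2. The 8 rows, of 60184 in the table, are the gene rows TET1, TET2 and TET3 and the plasmid rows named TET2_amber, TET2_start, mCherry, CMV and other, chosen by name. HEK293T, an established human line of embryonic kidney origin, expresses the large T antigen of SV40. All 6 libraries came from cells co-transfected with the plasmids pShP2419 and pStH1169, kept for 48 h with the amino acid 4,5-dimethoxy-2-nitrobenzyl-L-serine at 0.1 mM, and sorted to 500000 transfected cells each. They form 3 groups of 2 libraries: caged 0 h (no light), uncaged 4 h and uncaged 8 h, the last 2 taken 4 h and 8 h after 3 min of light at 365 nm. The labels do not state which signal gated the sort, what each plasmid row covers, or whether replicates were separate cultures. The p-values set a difference between groups against the spread of libraries within groups, and that spread may be only technical. It is estimated over the 3 groups together and draws on all rows. Cells without the plasmids were not exposed to light in any group, so effects of light, washing, time and uncaged enzyme cannot be told apart.

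TET enzymes are dioxygenases that use iron and 2-oxoglutarate to oxidise the methyl group of 5-methylcytosine in DNA stepwise to hydroxymethyl-, formyl- and carboxylcytosine. Glycosylases such as TDG can remove the last forms, which completes active demethylation. TET1 and TET3 carry a CXXC zinc finger that binds CpG-rich DNA, whereas TET2 lacks one. In amber suppression a TAG stop codon is read as a supplied amino acid, here a serine whose side chain is blocked until light frees it. The fluorescent protein mCherry is a common marker of transfected cells, and CMV is the usual name of a cytomegalovirus promoter and enhancer used to drive plasmid genes.

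The catalytic domains of the 3 enzymes are related, so the coding sequences were compared for stretches that a read could not tell apart. The stretches shown here hold the longest runs that the genes share, with the shared run in capitals and 30 bases of flank on each side in lower case, and the coordinates are those of the whole stretch printed. The longest run held by all 3 had 13 bases. It is shown within exon 10 of 12 of TET1 (GRCh38, chr10:68682885-68682957, plus strand), exon 9 of 11 of TET2 (chr4:105269659-105269731, plus strand) and exon 9 of 11 of TET3 (chr2:74093578-74093650, plus strand), in transcripts of GENCODE 29.
TET1: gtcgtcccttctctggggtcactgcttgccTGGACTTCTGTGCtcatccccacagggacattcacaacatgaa
TET2: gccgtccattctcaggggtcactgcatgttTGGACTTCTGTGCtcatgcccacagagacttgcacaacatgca
TET3: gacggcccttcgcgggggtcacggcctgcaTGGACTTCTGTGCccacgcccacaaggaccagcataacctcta
The longest run of any pair had 20 bases. It was shared by exon 7 of TET2 (printed stretch chr4:105259623-105259702) and exon 7 of TET3 (printed stretch chr2:74089901-74089980).
TET2: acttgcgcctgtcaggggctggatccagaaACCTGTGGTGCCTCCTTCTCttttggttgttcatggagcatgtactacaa
TET3: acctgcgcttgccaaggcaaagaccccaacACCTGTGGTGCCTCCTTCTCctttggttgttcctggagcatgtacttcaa
TET1 shared at most 17 bases with TET2 and 14 with TET3. No word of 31 bases was common to any pair of the 3 coding sequences. TET3 shared no such word with any other annotated gene, and TET1 shared 54 of its 9258 exon words with the pseudogene TET1P1 alone. TET2 shared 20 of its 16553 exon words with 97 other genes in all, and 0 of these words lay in its coding sequence. No source used here gives the word length of the deposited counting.

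Library totals ran from 17490010 to 20025955 estimated counts, of which the gene rows held 14903812 to 17670499. A level is given in CPM, with the summed estimated counts of the gene rows as the total. A fold change is a log2 fold change ± SE from edgeR's quasi-likelihood fit of all rows with Benjamini-Hochberg adjustment. That fit also scales each library by a TMM factor, which the CPM leave out, so a fold change can differ from the ratio of CPM means. All 9 markers listed for these cells reached a median of 1 CPM. Their summed level was 699 to 740 CPM in caged libraries, 635 to 636 CPM at 4 h and 603 to 619 CPM at 8 h. Of 13 markers of other cell types 5 reached that median, PTPRC of leukocytes stood at 0.0663 CPM or less and CD3E at 0 in all 6 libraries, and their sum was 35.3 to 38.8 CPM in caged libraries, 35.5 to 36.9 CPM at 4 h and 35.3 to 35.7 CPM at 8 h. The part that the lower sum of the first list plays in any result was not tested. In bulk RNA, fewer cells with a transcript and less of it per cell cannot be told apart.

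TET1 mRNA fell after light at both times, TET3 mRNA did not pass the test in any comparison, and 6 rows, TET2 and all 5 plasmid rows, rose at both times relative to the gene rows. The test called 6 of 8 rows higher at 4 h, beside 6.16% of all 17454 rows tested, and 1 lower, beside 3.55%. At 8 h it called the same 6 rows higher, beside 14.9% of all rows, and 1 lower, beside 13.2%. The 6 higher rows are not separate observations. TET2, TET2_amber and TET2_start divide reads among them, and the mCherry to CMV ratio had a coefficient of variation of 0.854% over the libraries. The 3 TET gene rows passed the filter on low counts, and the 5 plasmid rows were added without it. The comparisons of 4 h and 8 h with caged cells share the caged libraries, so they are not independent of each other. Scaled to library totals alone, the median of all rows stood at -0.109 at 8 h, and 44.7% of calls were higher at 4 h in place of 63.5%, and 29% at 8 h in place of 53%, but the directions of the 7 called rows were the same.

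TET1 encodes a dioxygenase best known from pluripotent and germ cells (ENSG00000138336.9, chromosome 10, 68560656 to 68694482 of GRCh38). It had 43.0 and 40.9 CPM in caged libraries, 28.7 and 27.5 CPM at 4 h and 21.1 and 25.1 CPM at 8 h. The groups did not overlap, and the lower caged library stood above all 4 uncaged ones. Groups that lie apart, here and below, are a description only. For 2 libraries against 2 an exact permutation test gives a two-sided p of 0.333 at the smallest. The share of all rows whose groups lie apart was not counted. These levels rest on 760 and 714 reads in caged libraries, 438 and 415 in the 4 h libraries and 316 and 374 in the 8 h libraries, and the exact (Clopper-Pearson) 95% intervals, which cover counting error only, were 40.01 to 46.2 and 37.9 to 44.0 CPM, 26.1 to 31.6 and 24.9 to 30.3 CPM, and 18.8 to 23.6 and 22.6 to 27.8 CPM. The mean was 28.1 ± 0.872 CPM at 4 h and 41.9 ± 1.52 CPM in caged cells (SD, n = 2), a log2 fold change of -0.53 ± 0.092 (adjusted p = 0.0127). At 8 h it was 23.1 ± 2.82 CPM, against 41.9 ± 1.52 CPM in caged cells, a log2 fold change of -0.76 ± 0.094 (adjusted p = 0.00145). Scaled to library totals alone, as the CPM are, that change was -0.86. The 8 h call held with each library left out in turn (-0.90 to -0.64), whereas the 4 h call was lost without any one of the 4 libraries compared (adjusted p = 0.0616 to 0.105) and against a 1.2-fold threshold (adjusted p = 0.112). At 8 h against 4 h the change was -0.23 ± 0.098 (95% interval -0.45 to -0.0044, adjusted p = 0.208), not past the test.

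TET3 encodes the dioxygenase known for oxidising the paternal genome after fertilisation in mouse (ENSG00000187605.15, chromosome 2, 73986404 to 74108176). It had 50.03 and 45.5 CPM in caged libraries, 47.4 and 58.1 CPM at 4 h and 50.2 and 47.6 CPM at 8 h. All 3 groups overlapped, and the highest value was that of 1 library at 4 h. The mean was 52.7 ± 7.51 CPM at 4 h and 47.8 ± 3.20 CPM in caged cells (SD, n = 2), a log2 fold change of 0.19 ± 0.0996 (95% interval -0.035 to 0.42, adjusted p = 0.257). At 8 h it was 48.9 ± 1.82 CPM, a log2 fold change of 0.14 ± 0.10 against caged cells (95% interval -0.090 to 0.37, adjusted p = 0.331), and 0.035 when scaled to library totals alone, as the CPM are. Without 4 h replicate 2 the 4 h value was 0.033 in place of 0.19, and without 4 h replicate 1 it was 0.33. Set at 8 h against 4 h, TET3 stood at -0.054 ± 0.10 (adjusted p = 0.799), and at 0.10 without 4 h replicate 2.

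Set per length of the annotated exons (9288 bases in TET1, 12271 in TET3), TET1 stood above TET3 in caged cells and below it after light. The order in caged cells rests on that choice of length. TET3 had more reads than TET1 in all 6 libraries, and its coding sequence is the shorter (5385 bases, against 6408 in TET1). TET1 stood at 4.52 ± 0.163 CPM per kb in caged cells, 3.03 ± 0.0938 at 4 h and 2.49 ± 0.304 at 8 h (SD, n = 2). TET3 stood at 3.89 ± 0.261 CPM per kb in caged cells, 4.30 ± 0.612 at 4 h and 3.99 ± 0.149 at 8 h. Within a library, the ratio of TET3 to TET1 reads was 1.16 and 1.11 in caged libraries, 1.65 and 2.11 in the 4 h libraries and 2.38 and 1.90 in the 8 h libraries. All 4 uncaged libraries had a higher ratio than both caged ones. The ratio was not tested.

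TET2, the transfected enzyme, had the most abundant of the 3 gene rows (ENSG00000168769.13, chromosome 4, 105145875 to 105279816). The row ranked from 11 to 14 among all gene rows, while TET1 ranked from 5971 to 8147 and TET3 from 4529 to 5712. Its estimates were not whole within 0.01 in any library, which happens when reads are divided between rows, nor were those of TET2_amber and TET2_start. In each library the 3 estimates added up to a whole number to within 0.001, whereas TET1, TET3, mCherry, CMV and other were whole on their own in all 6 libraries. The division of reads therefore took place among the TET2 gene row and the 2 segments named for TET2. Reads of the chromosomal gene cannot be told from those of the plasmid copy, so no TET2 value here measures the endogenous gene alone.

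The TET2 gene row had 3379 and 3400.5 CPM in caged libraries, 4086 and 4048 CPM at 4 h and 4513 and 4228 CPM at 8 h. The groups did not overlap, and both 8 h libraries lay above both 4 h libraries. It averaged 4067 ± 27.3 CPM at 4 h and 3389.8 ± 15.2 CPM in caged cells (SD, n = 2), a log2 fold change of 0.31 ± 0.035 (adjusted p = 0.00292) that turned to -0.17 when libraries were scaled by the summed plasmid rows and to -0.55 when scaled by mCherry. At 8 h it averaged 4370.2 ± 201 CPM, a log2 fold change of 0.47 ± 0.035 against caged cells (adjusted p = 0.000249), with -0.073 and -0.16 under the same 2 scalings. With offsets that depend on abundance (cyclic loess) neither rise passed, at 0.099 (adjusted p = 0.113) and 0.073 (adjusted p = 0.144), and against a 1.2-fold threshold the 4 h rise did not pass (adjusted p = 0.359). The row held 4.30% and 4.25% of the summed TET2 rows in caged libraries, 3.71% in both 4 h libraries and 3.85% and 3.78% in the 8 h libraries. Its share was thus lower in all 4 uncaged libraries while its own level was higher. Level, share, SD, SE and p of this row rest on estimates of how reads were divided among the TET2 rows. They leave out the uncertainty of that division.

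Both plasmid segments named for TET2 rose at both times, and the difference between them was not tested. TET2_amber had 31662 and 34573 CPM in caged libraries, 46939 and 46876.5 CPM at 4 h and 52731 and 49565 CPM at 8 h. The log2 fold change against caged cells was 0.55 ± 0.041 at 4 h (adjusted p = 0.000695) and 0.73 ± 0.041 at 8 h (adjusted p = 0.000110). All groups of the amber segment were apart. TET2_start had 43533 and 41982 CPM in caged libraries, 59162 and 58166 CPM at 4 h and 59985 and 58093 CPM at 8 h. Its log2 fold change was 0.51 ± 0.022 at 4 h (adjusted p = 5.65e-05) and 0.57 ± 0.022 at 8 h (adjusted p = 3.06e-05). Here the 4 h and 8 h libraries overlapped. The ratio of amber to start reads was 0.727 and 0.824 in caged libraries, 0.793 and 0.806 in the 4 h libraries and 0.879 and 0.853 in the 8 h libraries. Both 8 h ratios exceeded all others, and the 4 h ratios lay between those of the 2 caged libraries. The values and ratios of these segments likewise leave out the uncertainty in how reads were divided among the TET2 rows.

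Adding the 3 rows that share reads removed the question of how they were divided. The summed TET2 rows had 78575 and 79955 CPM in caged libraries, 110188 and 109091 CPM at 4 h and 117228 and 111885 CPM at 8 h. Every uncaged library lay above both caged libraries. On the log2 scale the sum rose by 0.52 ± 0.020 at 4 h (adjusted p = 3.06e-05), and at 8 h the rise was 0.64 ± 0.020 (adjusted p = 9.24e-06). Both calls held with each library left out (0.50 to 0.53 and 0.60 to 0.66). This sum was chosen after the data were seen. Per library it was 845 and 926 times the TET1 and TET3 reads together in caged cells, 1447 and 1275 times in the 4 h libraries and 1644 and 1538 times in the 8 h libraries.

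The mCherry and CMV rows moved together and had the largest changes at 4 h among the 8 rows. The mCherry row had 7675 and 6797 CPM in caged libraries, 12806.5 and 12496 CPM at 4 h and 10502 and 10193 CPM at 8 h. The CMV row had 5103 and 4554 CPM in caged libraries, 8386 and 8217 CPM at 4 h and 6912 and 6764 CPM at 8 h. In both rows the groups were apart and the 4 h libraries were highest. For mCherry the log2 fold change against caged cells was 0.86 ± 0.049 at 4 h (adjusted p = 0.000227) and 0.62 ± 0.049 at 8 h (adjusted p = 0.000275). For CMV it was 0.83 ± 0.047 at 4 h (adjusted p = 0.000227) and 0.61 ± 0.047 at 8 h (adjusted p = 0.000275). The ratio of mCherry to CMV reads stayed between 1.49 and 1.53 over the 6 libraries, a coefficient of variation of 0.854%, although the level of mCherry differed between the 2 caged libraries.

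**Figure D1:**
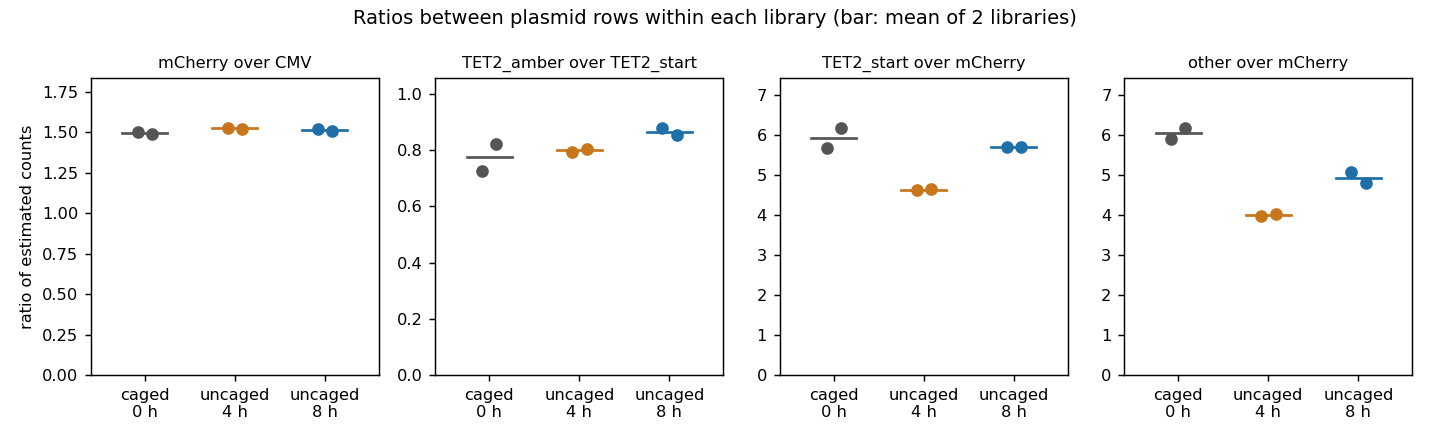
Ratios of estimated counts between plasmid rows within each library (vertical axis, from 0) by group; points are libraries and bars means of 2. The mCherry to CMV ratio stays between 1.49 and 1.53, while the ratios of TET2_start and of other to mCherry are lowest at 4 h.

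The row named other covers plasmid sequence that the labels do not specify, and it had the smallest fold change of the plasmid rows at both times. It had 45325.5 and 41955 CPM in caged libraries, 51046 and 50166.5 CPM at 4 h and 53215 and 48912 CPM at 8 h. All 4 uncaged libraries lay above both caged ones. Its log2 fold change was 0.26 ± 0.041 at 4 h (adjusted p = 0.00858) and 0.33 ± 0.041 at 8 h (adjusted p = 0.00141). The 4 h call was lost without caged replicate 2, without 4 h replicate 1 or without 4 h replicate 2 (adjusted p = 0.0505, 0.0522 and 0.0619), and neither call passed against a 1.2-fold threshold (adjusted p = 0.954 and 0.133).

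Whether the plasmid rows changed by unequal amounts was examined with mCherry in place of the gene rows as the scale. A fold change is then one relative to mCherry. Of the 8 rows mCherry had the largest rise at 4 h, so 4 h values below 0 followed from choosing it. Every row of this fit also shares the replicate spread of mCherry. Its adjusted p therefore cannot be set beside those of the fit scaled by gene rows. At 4 h, TET2_start stood at -0.35 ± 0.041 (adjusted p = 9.78e-06), TET2_amber at -0.31 ± 0.070 (adjusted p = 0.00108) and other at -0.59 ± 0.040 (adjusted p = 3.07e-06). These 3 rows thus gained less than mCherry did in the first 4 h, and CMV did not differ from it past the test (-0.025 ± 0.054, adjusted p = 0.677). At 8 h against caged cells, other was still lower relative to mCherry (-0.29 ± 0.040, adjusted p = 5.07e-05), while TET2_start (-0.054 ± 0.041, adjusted p = 0.253) and TET2_amber (0.10 ± 0.070, adjusted p = 0.210) did not pass. Among all plasmid reads, mCherry made up 5.76% and 5.23% of them in caged libraries, 7.18% and 7.10% in the 4 h libraries and 5.73% and 5.87% in the 8 h libraries. The row other made up 34.0% and 32.3% in caged libraries, 28.6% and 28.5% in the 4 h libraries and 29.02% and 28.2% in the 8 h libraries. TET2_start kept to between 32.3% and 33.5% in all 6 libraries.

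**Figure D2:**
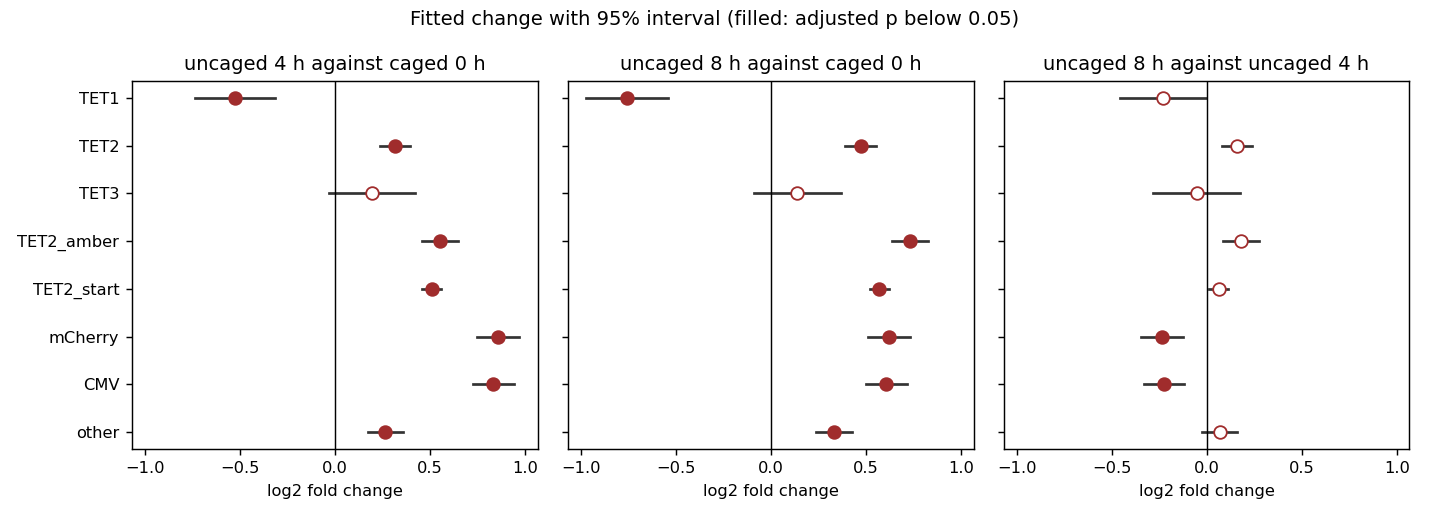
Log2 fold change of each row (horizontal axis) with its 95% interval in the 3 comparisons, from the fit scaled by gene rows; filled points passed an adjusted p of 0.05. TET1 is the lower row in both comparisons with caged cells, and mCherry and CMV lie furthest right at 4 h.

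Between 4 h and 8 h the test called 2 of the 8 rows lower, mCherry and CMV, beside 1.25% of all rows, and 0 higher, beside 2.04%. These 2 rows moved together, so they are not separate observations. With an unadjusted p under 0.05, edgeR gave 3 higher and 3 lower. At an adjusted p under 0.05, DESeq2 called 2 higher and 2 lower. The mCherry row stood at -0.24 ± 0.049 (adjusted p = 0.0431) and CMV at -0.23 ± 0.047 (adjusted p = 0.0437) at 8 h against 4 h. Both calls were lost without any one of the 4 libraries compared (adjusted p = 0.106 to 0.189), without a low-count filter (adjusted p = 0.111 and 0.114) and against a 1.2-fold threshold. The TET2 gene row stood at 0.16 ± 0.035 (adjusted p = 0.0508) and TET2_amber at 0.18 ± 0.041 (adjusted p = 0.0549), both just short of the threshold, and over the alternatives not scaled by plasmid reads alone their adjusted p ran from 0.00313 to 1 and from 0.0120 to 1. TET2_start (0.063 ± 0.022, adjusted p = 0.135) and other (0.067 ± 0.041, adjusted p = 0.370) did not pass. Of the 8 rows mCherry had the lowest value between the times, so values above 0 relative to it followed from choosing it. On that scale TET2_start stood at 0.30 ± 0.041 (adjusted p = 0.00282) and TET2_amber at 0.41 ± 0.071 (adjusted p = 0.00667) at 8 h against 4 h. Neither adjusted p can be set beside those of the fit scaled by gene rows. The summed TET2 rows rose by 0.12 ± 0.020 (adjusted p = 0.0299), a call lost without either 4 h library or without 8 h replicate 1 (adjusted p = 0.148, 0.131 and 0.0744).

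Together the 5 plasmid rows took 11.8% and 11.5% of all reads in caged libraries, 15.1% and 14.96% in the 4 h libraries and 15.5% and 14.8% in the 8 h libraries. The 8 h libraries differed from each other more than the 4 h libraries did, and both 4 h values lay between the 2 at 8 h. For the first 8 h library the exact 95% interval was 15.48% to 15.51%, so counting error was small beside the difference between replicates.

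**Figure D3:**
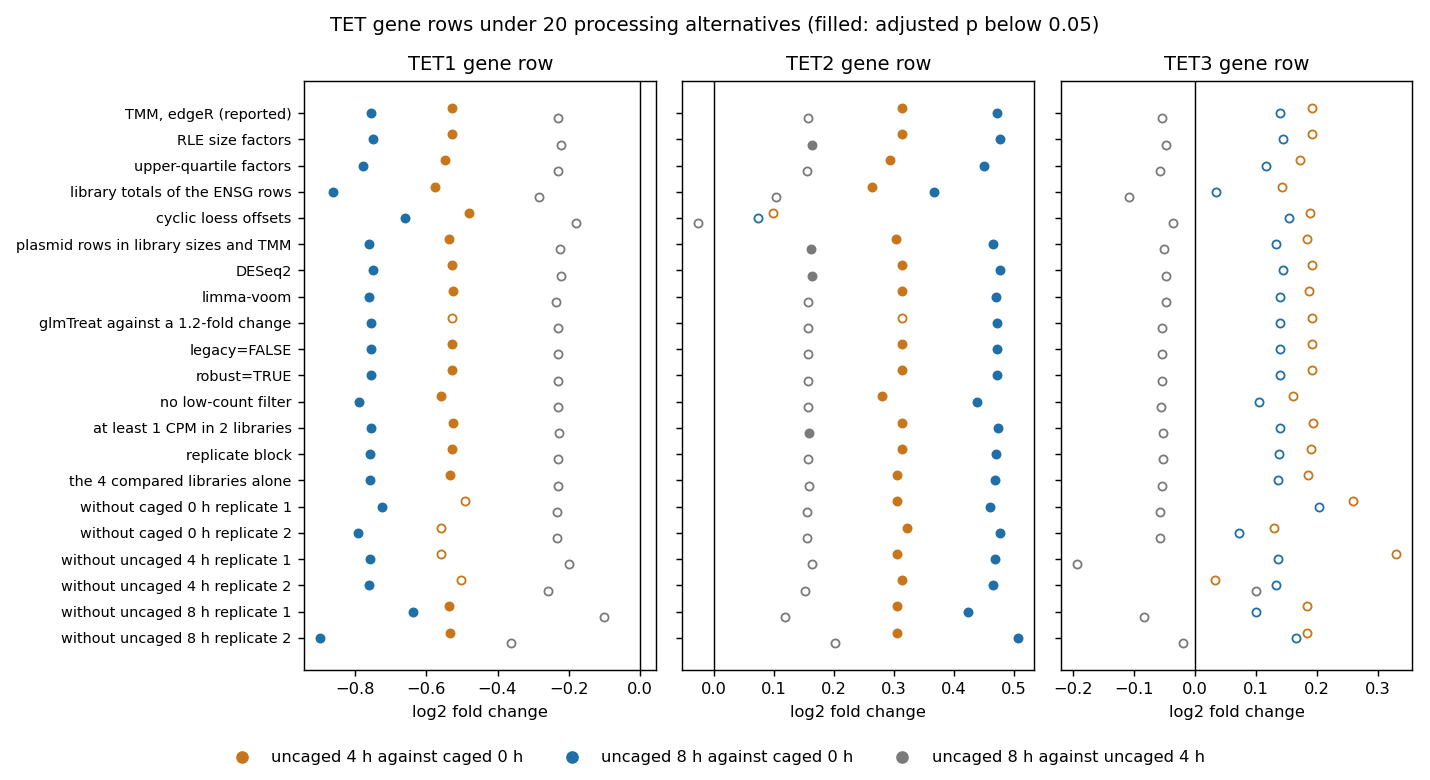
Log2 fold change of the 3 TET gene rows (horizontal axis) under the reported fit and 20 alternatives, those scaled by plasmid reads alone left out (vertical axis), with colours for the 3 comparisons and filled points for an adjusted p below 0.05. TET1 stays below 0 throughout, TET3 is never filled, and the 4 h and 8 h values of TET2 approach 0 with cyclic loess offsets.

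Partners, cofactor enzymes and substrate enzymes of TET proteins were read from a list of 40 genes, of which 35 were tested. The list was chosen with earlier results of these data known. Its share of calls beside that of all rows is therefore a description only, at 4 h and at 8 h. At 4 h 4 were called higher and 1 lower (14.3%, beside 9.71% of all rows), with a median log2 fold change of 0.026 beside -0.0061 for all rows. HCFC1, a chromatin cofactor cleaved by the TET-binding glycosyltransferase OGT, stood at 136 ± 6.66 CPM at 4 h and 78.7 ± 9.27 CPM in caged cells (SD, n = 2), a log2 fold change of 0.84 ± 0.083 (adjusted p = 0.00190). OGT itself stood at 0.17 (adjusted p = 0.137). DCAF1 (0.39 ± 0.064, adjusted p = 0.0103) and DDB1 (0.27 ± 0.052, adjusted p = 0.0183), parts of a CRL4 ubiquitin ligase that modifies TET proteins, rose, as did UHRF1 (0.27 ± 0.069, adjusted p = 0.0446), which brings DNMT1 to newly made DNA. CXXC5, a CXXC protein that binds TET2, fell to 21.0 ± 0.290 CPM at 4 h, against 28.5 ± 0.941 CPM in caged cells, by 0.39 ± 0.085 (adjusted p = 0.0283). With 1 of the 4 compared libraries left out, 1 or 2 of the list were higher and 0 lower. HCFC1 was the one of these 5 whose 4 h call held in each of the 14 alternatives of scaling, test and filter and with each compared library left out.

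At 8 h 8 of the 35 were called higher and 6 lower (40%, beside 28.1% of all rows), with a median log2 fold change of 0.041 beside -0.0044 for all rows. Scaled to library totals alone, the counts were 3 higher and 12 lower, with cyclic loess offsets 3 were higher, and against a 1.2-fold threshold 2 were higher and 2 lower. The higher count was 4 without caged replicate 1, caged replicate 2 or 8 h replicate 1 and 3 without 8 h replicate 2, and the lower count was 2 without caged replicate 1. HCFC1 (0.81 ± 0.083, adjusted p = 0.000731), DCAF1 (0.39 ± 0.064, adjusted p = 0.00385) and MBD3, a subunit of the NuRD complex (0.48 ± 0.079, adjusted p = 0.00396), rose. CXXC5 (-0.50 ± 0.086, adjusted p = 0.00476), the de novo methyltransferase gene DNMT3B (-0.46 ± 0.092, adjusted p = 0.00837) and IDH1 (-0.46 ± 0.089, adjusted p = 0.00750), which makes the TET cosubstrate 2-oxoglutarate, fell. IDH1 lost its call without caged replicate 2 (adjusted p = 0.0510) and DNMT3B without caged replicate 1 (adjusted p = 0.0541), and against a 1.2-fold threshold DCAF1, IDH1 and DNMT3B did not pass (adjusted p = 0.0897, 0.0776 and 0.0817). Between 4 h and 8 h edgeR called 0 of the 35, beside 3.29% of all rows, with 8 at an unadjusted p under 0.05 and 0 called by DESeq2 or limma-voom.

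**Figure D4:**
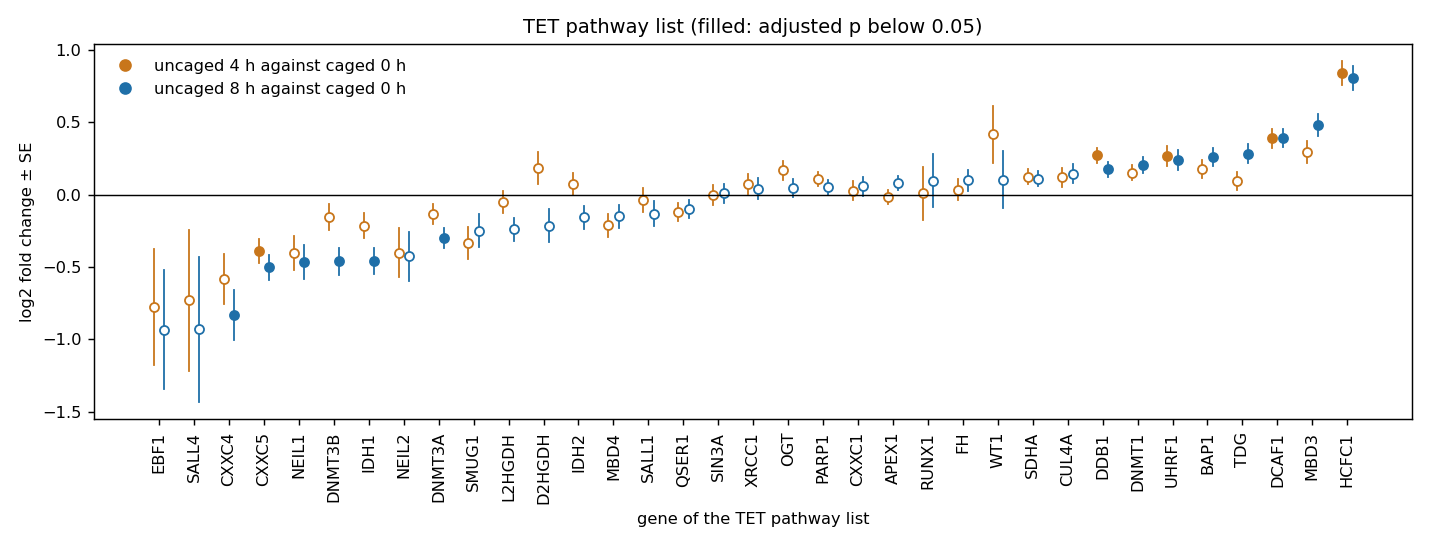
Log2 fold change ± SE (vertical axis) of the 35 tested genes of the TET pathway list at 4 h and at 8 h against caged cells, ordered by the 8 h value; filled points passed an adjusted p of 0.05. HCFC1 lies highest at both times, and CXXC5 is filled below 0 at both times.

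Genes with the most similar course were found by the Euclidean distance between centred log2 levels over the 6 libraries, among 11644 features with a symbol and at least 5 CPM, as a description with no test. The nearest to TET1 were ANO5 (0.0992), IL10RB (0.112), ETV6 (0.113) and SLC30A4 (0.120), all lower at both times, as with ETV6 at 15.4 CPM in caged cells, 10.7 CPM at 4 h and 9.17 CPM at 8 h after TMM scaling. The nearest to the TET2 gene row were XPC (0.0252), a DNA damage recognition gene, CSTF1 (0.0421), EIF3D (0.0541) and TIMM23B (0.0567). The nearest to TET2_amber were PBLD (0.0935), H2AC25 (0.0950), DUSP16 (0.101) and RBM15B (0.113). The nearest to mCherry were SNAI2 (0.122), SMAD6 (0.132), ACTB (0.169) and DGCR8 (0.170), and the distance from mCherry to CMV was 0.0276. The nearest to TET3 were FGFR3 (0.0746), SNX8 (0.103), GRINA (0.104) and MED16 (0.107). TET1 lay 1.27 from the TET2 gene row and 0.996 from TET3, and the TET2 gene row lay nearer to other (0.167) and TET2_start (0.202) than to TET2_amber (0.303).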

How the data were processed

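The deposited table holds estimated counts (expected counts), without normalisation by the authors, for each gene and plasmid row in 6 libraries. The submitters' processing notes name Salmon 1.1.0, R 3.6.1, DESeq2 and the build GRCh38; no source used here gives the transcript annotation, the strand setting or a DESeq2 version. Symbols came from a name table by gene ID (41692 of 60179 gene rows). Counts were rounded, gene rows filtered with filterByExpr (minimum count 10, minimum total 15) and scaled by TMM over gene rows. The 5 plasmid rows were then added with those sizes kept, and all 17454 rows were fitted with edgeR 4.0.16 in R 4.3.3 (glmQLFit, legacy=TRUE, all 6 libraries, no covariates; residual df 3, prior df 5.42). The threshold was an adjusted p (Benjamini-Hochberg) of 0.05, and the SE is the log2 fold change divided by the square root of F. Alternatives used DESeq2 1.42.0 and limma 3.58.1. A count of 0 allows up to 3 counts, 0.170 to 0.201 CPM. No 2 replicates agreed within counting error (chi-square over its degrees of freedom was 4.07, 3.65 and 4.31). Named genes were the 8 rows, at most 6 called list genes per comparison by smallest p, and the 4 nearest courses per row. The rows and lists were chosen with earlier results of these data known. The fit was also run on counts simulated with the same coefficient of variation, 6.34%, for every row, and no result rests on that run.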

Additional observations from a re-analysis of the deposited data

How the results depend on the processing

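All 6 higher calls at 4 h and at 8 h kept their direction under every alternative not scaled by plasmid reads alone, and TET1 stayed lower. Against a 1.2-fold change, 228, 1409 and 9 features were called at 4 h, at 8 h and between them, with 0 of the 8 rows lower at 4 h and 0 lower between the times. Without a low-count filter, 715 features were called at 4 h and 54 between the times, with 0 of the 8 rows lower between them. With robust=TRUE 1048 were called between the times. The labels do not say whether same-numbered replicates belong together, and their deviations correlated at -0.0156, 0.149 and -0.275 between groups. With a replicate block 1044 features were called at 4 h and 176 between the times. In the latter comparison 1 of the 8 rows was lower because CMV missed the threshold (adjusted p = 0.0509). Between the times 1 of the 8 rows was called higher with RLE factors, upper-quartile factors, at least 1 CPM in 2 libraries or the 4 libraries alone, and 2 with DESeq2 or with plasmid rows in the library sizes. Leaving out 1 library gave 217 to 1621 features at 4 h, 2275 to 4297 at 8 h and 4 to 275 between them, with 0 to 1 of the 8 rows lower at 4 h, 0 to 2 lower and 0 to 1 higher between the times; fewer libraries enter those fits.

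Relative to the summed plasmid rows, the TET2 gene row stood at -0.166 at 4 h and -0.0735 at 8 h, and other at -0.215 and -0.213. Relative to mCherry, the 4 h values were -0.549 for the TET2 gene row, -0.313 for TET2_amber, -0.353 for TET2_start, -0.0246 for CMV and -0.594 for other. The 8 h values were -0.155 for the TET2 gene row, -0.0543 for TET2_start, -0.0143 for CMV and -0.292 for other, and the step between the times was 0.0104 for CMV. In these fits a value is one relative to the plasmid reads used as the scale. Cyclic loess offsets were made from gene rows alone, so no plasmid row has a value there. TET1 and TET3 rest on 316 to 884 reads each, the fewest of the 8 rows.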

Other observations

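The antisense gene TET2-AS1, annotated on the opposite strand within TET2, had between 1 and 4 reads in each library, 0.0663 to 0.229 CPM, and all groups overlapped. The pseudogene TET1P1 had 1 read in the first caged and the first 8 h library and 0 in the other 4. The reads given to these relatives were therefore few beside those of TET1 and TET3.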
